A study of Mus musculus with 6 samples.

Results

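Alpha and beta tubulin are the subunits of the microtubule, and mouse cells make each of them from several genes, called isotypes. The 10 isotypes described here were chosen by gene symbol, as a list of 3 alpha tubulin genes (Tuba1a, Tuba1b and Tuba1c) and the beta tubulin genes Tubb2a, Tubb2b, Tubb3, Tubb4a, Tubb4b, Tubb5 and Tubb6. All 10 were measured, among 19505 genes in all. No cut on signal chose them, but earlier results of these data were known when the list was made. Each was read by 1 probe set, so no choice between probe sets was needed. Transcripts came from mouse 393P cells, written 9393P in some labels, a line known to derive from a lung adenocarcinoma. One group of 3 samples carried AC9 as a stable transfection for overexpression, and the other group of 3 samples carried the empty VECTOR. Cells of both groups grew in RPMI with fetal bovine serum and were selected with puromycin or G418. The labels used here name neither the drug of each group nor whether the transfected cells were a pool or a single clone, so drug, selection of cells and AC9 cannot be told apart in any comparison. Total RNA of each sample was hybridised to 1 Affymetrix Clariom S array, an array with probe sets for most known genes.

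As background, an alpha and a beta subunit fold with the help of chaperones, join into a dimer, and dimers add to and leave the ends of microtubules, which form the interphase network, the mitotic spindle and the core of cilia. Alpha isotypes, and likewise beta isotypes, differ mostly in their acidic tails, where enzymes add or remove amino acids. Cells hold the pool of free dimer in check through tubulin mRNA: when free dimer is plentiful, TTC5 binds nascent tubulin at the ribosome and the mRNA is degraded, a mechanism worked out in human cells.

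The values are log2 intensities, made by the authors with RMA, so a difference of 1 is a 2-fold difference. The 90th percentile of the negative control probe sets, 6.06 on average over the arrays, served as a bound for dim signals. Median log2 intensity over all genes was 6.42 to 6.46 per array. Correlations across genes were 0.994 to 0.996 within a group and 0.985 to 0.988 between groups, and genes are not independent replicates. The labels do not state that the 3 samples of a group were grown as separate cultures. The p-values therefore rest on the spread among these arrays alone, and that spread may be technical. The 8 epithelial markers that define the labelled kind of cell were all above the bound in at least 1 group, with Cdh1, the adhesion protein E-cadherin, at a mean of 12.6 in AC9 and 12.8 in VECTOR. By the limma test described below, 8.26% of all genes were called higher in AC9 and 9.29% lower. Of the 8 markers, 3 were called higher and 1 lower, with a median log2 change of 0.34. These were Epcam (0.44), Krt7 (0.48) and Cldn4 (0.50), and Krt19 (-0.47), named after their values were seen.

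Sequence before the start site is shown for the isotypes that were lower in AC9, Tuba1a and Tubb2a, and for Tuba1b, the neighbour of Tuba1a on chromosome 15, which was not called. The sequences are RefSeq's, on the build GRCm38.p6, and each is the 250 bases before the start of the gene on its own strand. Such windows were found for 8 of the 10 isotypes. Tubb2b and Tubb6 had none, so their sequence was not searched. Tuba1b and Tuba1a, Tuba1a and Tuba1c, and on chromosome 13 Tubb2a and Tubb2b, are adjacent protein-coding genes in the RefSeq table, with 0 protein-coding genes between them. Capitals mark any match to TGACGTCA (the cAMP response element), to its core TGACG, to TATAAA (a form of the TATA box) or to CCAAT, each searched on both strands. Only these exact letters were searched, so variant forms, such as other TATA-like runs, are not marked. TGACG lies within TGACGTCA, and the capitals run together there. Tuba1a is chr15:98953502-98953751, minus strand, Tuba1b is chr15:98934391-98934640, minus strand, and Tubb2a is chr13:34078009-34078258, minus strand.
Tuba1a: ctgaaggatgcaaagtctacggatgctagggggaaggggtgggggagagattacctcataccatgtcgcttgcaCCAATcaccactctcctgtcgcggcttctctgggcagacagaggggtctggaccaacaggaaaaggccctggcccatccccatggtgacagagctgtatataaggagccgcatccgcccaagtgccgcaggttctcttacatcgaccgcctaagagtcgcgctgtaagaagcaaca
Tuba1b: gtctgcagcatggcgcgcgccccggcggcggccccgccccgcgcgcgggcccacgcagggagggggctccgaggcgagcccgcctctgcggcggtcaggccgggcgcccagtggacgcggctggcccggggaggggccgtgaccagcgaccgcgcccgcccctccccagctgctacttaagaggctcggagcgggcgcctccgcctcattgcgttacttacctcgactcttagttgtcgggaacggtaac
Tubb2a: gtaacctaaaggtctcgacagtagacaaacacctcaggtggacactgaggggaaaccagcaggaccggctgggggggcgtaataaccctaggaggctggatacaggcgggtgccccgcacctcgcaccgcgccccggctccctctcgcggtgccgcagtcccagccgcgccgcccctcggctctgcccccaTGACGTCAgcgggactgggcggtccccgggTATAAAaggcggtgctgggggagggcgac
The Tubb2a window held TGACGTCA, whose first base lay 59 bases before the start, and TATAAA 29 bases before it. Of the 8 windows of isotypes, only that of Tubb2a held TGACGTCA, a run of letters found in 1.55% of the 32851 windows in the table. The core TGACG, found in 17.8% of all windows, was also in those of Tuba1c, Tubb4a and Tubb4b. In the Tuba1a window the marked run was CCAAT, 176 bases before the start, which 33.8% of windows hold, while the Tuba1b window held none of the marked letters. The Tubb4b window held CCAAT at 5 places, the nearest 19 bases before the start, and TATAAA occurs in 12.4% of all windows. A match of letters is a description and not a binding site.

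In AC9 cells, 1 isotype rose, Tubb6, and 2 fell, Tuba1a and Tubb2a, by limma at an adjusted p of 0.05 over all genes. The other 7 did not pass. Over all 19505 genes, 8.26% were called higher in AC9 and 9.29% lower, and the isotypes' counts of 1 and 2 of 10 lie near that background. The isotypes' log2 changes ranged from -0.55 to 0.93, with a median of -0.13 against 0.02 for all genes. Groups did not overlap for 6 of the 10 isotypes, where 35.1% of all genes did not overlap. Without AC9 replicate 1, the number of genes called overall was 2174 in place of 3424, and without AC9 replicate 3 the number called higher was 1061 in place of 1612.

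**Figure D1:**
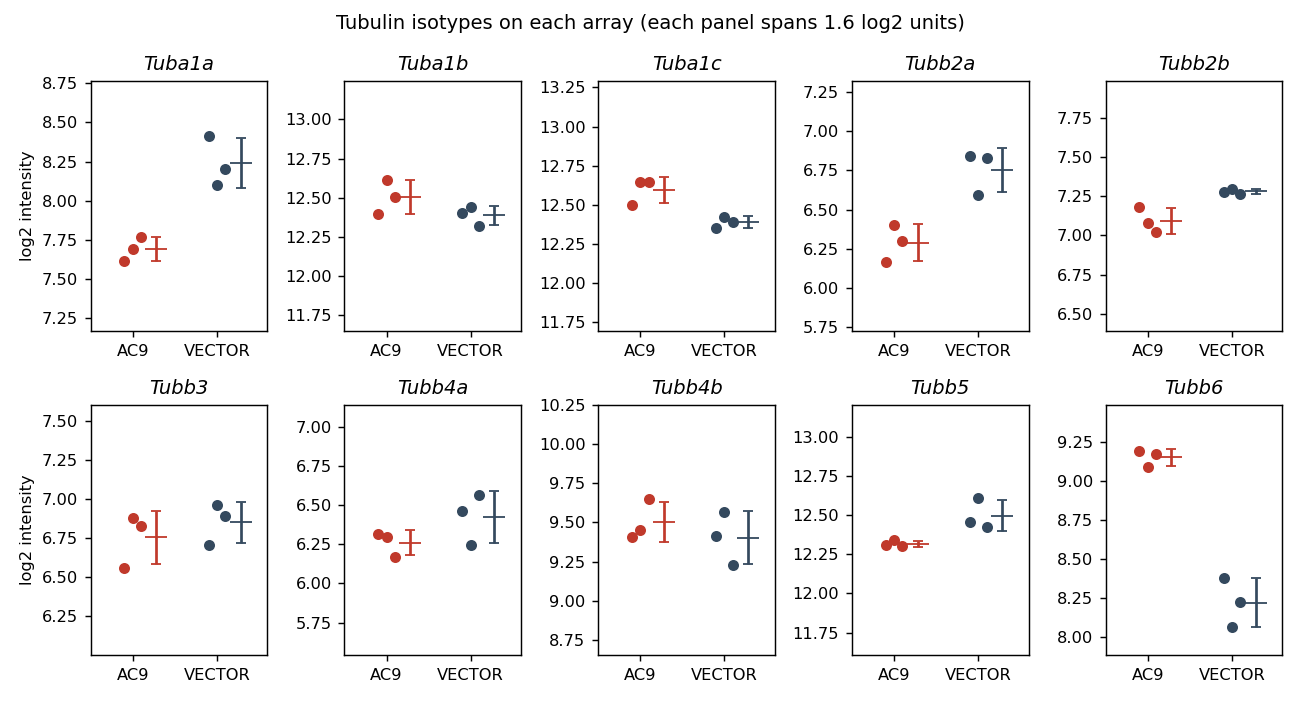
Log2 intensity (y axis) of each tubulin isotype on the 3 AC9 and the 3 VECTOR arrays, with the mean and SD of the group beside the points. Every panel spans the same number of log2 units, but levels of different genes are not comparable. The Tubb6 points of AC9 lie at 9.09 to 9.19, above those of VECTOR, while the Tuba1a and Tubb2a points of AC9 lie below those of VECTOR.

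Tubb6, a beta tubulin of many tissues outside the nervous system whose overproduction is known to disturb microtubules in cultured hamster cells, was the isotype that moved furthest. Its log2 intensity (probe set TC1800000704.mm.2) was 9.19, 9.09 and 9.18 on the AC9 arrays, against 8.38, 8.07 and 8.22 on the VECTOR arrays. All 3 AC9 arrays were above all 3 VECTOR arrays, and the gap between the groups was wider than the spread within either. The log2 change was 0.93 (SE 0.10, 95% interval 0.69 to 1.17), a 1.91-fold difference with a limma adjusted p of 0.000451. Ordered by rise, it stood at place 173 of 19505 genes. The call held whichever array was left out, with log2 changes of 0.85 to 1.01 and adjusted p of 0.00128 to 0.00328. In RNA of a whole culture, more cells with a transcript and more transcript per cell cannot be told apart.

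Tuba1a, the alpha tubulin best known from neurons and needed there for migration in the developing brain, fell. It read (probe set TC1500002200.mm.2) 7.61, 7.69 and 7.77 in AC9, against 8.41, 8.10 and 8.20 in VECTOR. The groups did not overlap, and the VECTOR arrays spread more widely, with an SD of 0.16 against 0.08 in AC9. Its log2 change was -0.55 (SE 0.11, 95% interval -0.79 to -0.30), which makes VECTOR 1.46-fold higher, with a limma adjusted p of 0.00789. Leaving out any array kept the call, with adjusted p of 0.0112 to 0.0371.

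Tubb2a, a beta tubulin abundant in brain and present at lower levels elsewhere, also fell. It gave (probe set TC1300001779.mm.2) 6.17, 6.40 and 6.30 on the AC9 arrays, against 6.84, 6.59 and 6.83 on those of VECTOR. The AC9 values sat close to the dim bound of 6.06, and the highest AC9 value was 6.40 against a lowest VECTOR value of 6.59. The log2 change was -0.47 (SE 0.11, 95% interval -0.71 to -0.22), or 1.38-fold higher in VECTOR, with a limma adjusted p of 0.0173. The call was lost when any of 4 arrays was left out. The adjusted p was 0.0730 without AC9 replicate 1, 0.0514 without AC9 replicate 3, 0.0608 without VECTOR replicate 1 and 0.0535 without VECTOR replicate 3, while the log2 change stayed between -0.55 and -0.40. Background probe sets, which should match no transcript, were also lower in AC9: 19 of 23 classes by GC content did not overlap, with differences down to -0.50. The part of that shift in the falls of Tuba1a and Tubb2a was not tested, and the GC content of their probes was not known here.

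The remaining alpha tubulins, Tuba1b and Tuba1c, are expressed in most dividing cells, and neither passed the test. Tuba1b read 12.40, 12.62 and 12.51 in AC9 against 12.40, 12.44 and 12.32 in VECTOR, with overlapping groups. Its change was 0.12 (SE 0.10, 95% interval -0.10 to 0.34, limma adjusted p 0.465). Tuba1c read 12.50, 12.64 and 12.64 in AC9, against 12.35, 12.42 and 12.39 in VECTOR. All its AC9 arrays were above all its VECTOR arrays, by a small margin: the change was 0.21 (SE 0.09, 95% interval 0.00147 to 0.41), with a limma adjusted p of 0.162. With a prior variance that follows intensity, Tuba1c passed, at an adjusted p of 0.00433.

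Among the beta tubulins, Tubb5, the main beta tubulin of proliferating cells, read 12.31, 12.34 and 12.30 in AC9 against 12.46, 12.61 and 12.42 in VECTOR. The AC9 arrays lay close together, with an SD of 0.02, and below all the VECTOR arrays. The change of -0.18 (SE 0.09, 95% interval -0.39 to 0.03) did not pass (limma adjusted p 0.229), but did with the intensity-trended prior (0.0154). Tubb4b, a widely expressed beta tubulin that cilia also use, read 9.41, 9.45 and 9.65 in AC9 against 9.41, 9.57 and 9.23 in VECTOR. These groups overlapped, and the change was 0.10 (SE 0.12, 95% interval -0.16 to 0.36, limma adjusted p 0.632).

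The isotypes known chiefly from neurons, Tubb2b, Tubb3 and Tubb4a, had lower means in AC9 without passing the test. Tubb2b, mutated in human cortical malformations, read 7.18, 7.08 and 7.02 in AC9 against 7.28, 7.30 and 7.27 in VECTOR, a change of -0.19 (SE 0.09, 95% interval -0.39 to 0.02, limma adjusted p 0.200). All its AC9 arrays were lower than all its VECTOR arrays. Tubb3, the class used as a marker of neurons, read 6.56, 6.88 and 6.83 in AC9 against 6.70, 6.96 and 6.89 in VECTOR. Its groups overlapped, at a change of -0.10 (SE 0.12, 95% interval -0.36 to 0.17, limma adjusted p 0.640), and without AC9 replicate 1 the difference was 0.000262. Tubb4a, a beta tubulin of brain and myelin-forming cells, read 6.32, 6.29 and 6.17 in AC9 against 6.46, 6.24 and 6.57 in VECTOR. Again the groups overlapped, with a change of -0.17 (SE 0.11, 95% interval -0.41 to 0.08, limma adjusted p 0.359).

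Coding sequences of alpha tubulin isotypes, and of Tubb2a and Tubb2b, are known to be nearly identical, and the bases that each probe set reads were not known here. How far a probe set reads a close relative was not tested. Tubb3, Tubb2b and Tubb4a were above the dim bound in both groups, as were all 10 isotypes, whereas 10 of 11 other markers of neurons were below it in both groups. The exception was Snap25, a synaptic fusion protein picked out after its values were seen, at means of 7.05 in AC9 and 6.63 in VECTOR. All 7 measured markers of multiciliated cells, 8 of leukocytes and 6 of endothelium were below the bound in both groups, and so were 6 of 7 markers of fibroblasts. The mean level of the neuron list was 4.85 to 4.99 on the AC9 arrays and 4.65 to 4.86 on the VECTOR arrays.

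**Figure D2:**
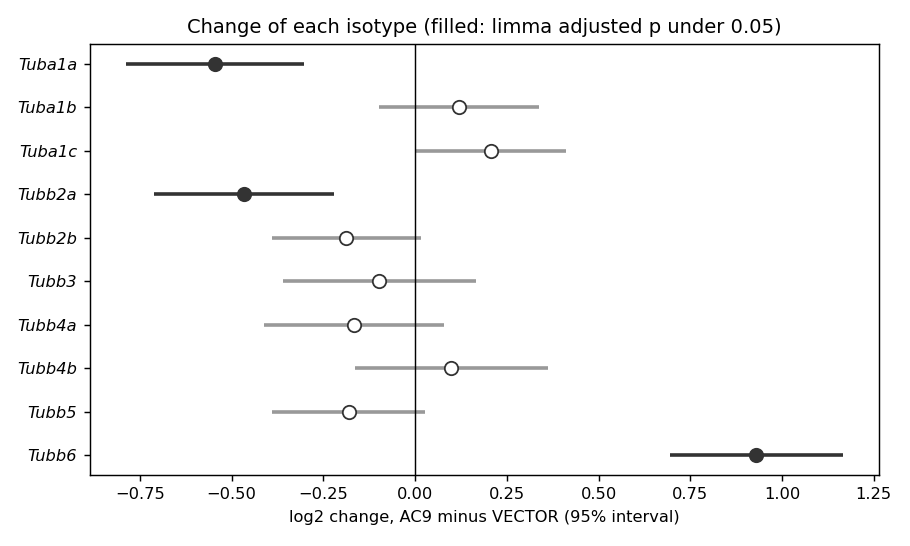
Log2 change, AC9 minus VECTOR (x axis), of each tubulin isotype (y axis), with the 95% interval of the limma fit. Filled points have an adjusted p under 0.05: Tubb6 at 0.93, Tuba1a at -0.55 and Tubb2a at -0.47.

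The ratio of a pair of isotypes within each array was compared between the groups. A log2 shift of equal size for both genes cancels in it, but one that varies with GC content or signal does not. The ratio of Tubb5 to Tubb6 was lower in AC9 by a log2 difference of -1.11, and its arrays did not overlap. Tuba1a was lower relative to Tuba1b, by -0.67, and relative to Tuba1c, by -0.75, again with no overlap. The ratio of Tubb5 to Tubb4b differed by -0.28 with no overlap. For these 4 of the 7 pairs computed, the two-sided exact permutation p was 0.10, the smallest that 3 against 3 arrays allow, and 0.175 after Benjamini-Hochberg adjustment over the pairs. The other pairs overlapped between groups: Tubb2a to Tubb2b at -0.28 (exact p 0.20), Tubb4a to Tubb4b at -0.26 (exact p 0.40) and Tuba1b to Tuba1c at -0.09 (exact p 0.20). No pair passed a threshold of 0.05, which this design cannot reach, so unequal change within a pair is not shown by these tests.

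**Figure D3:**
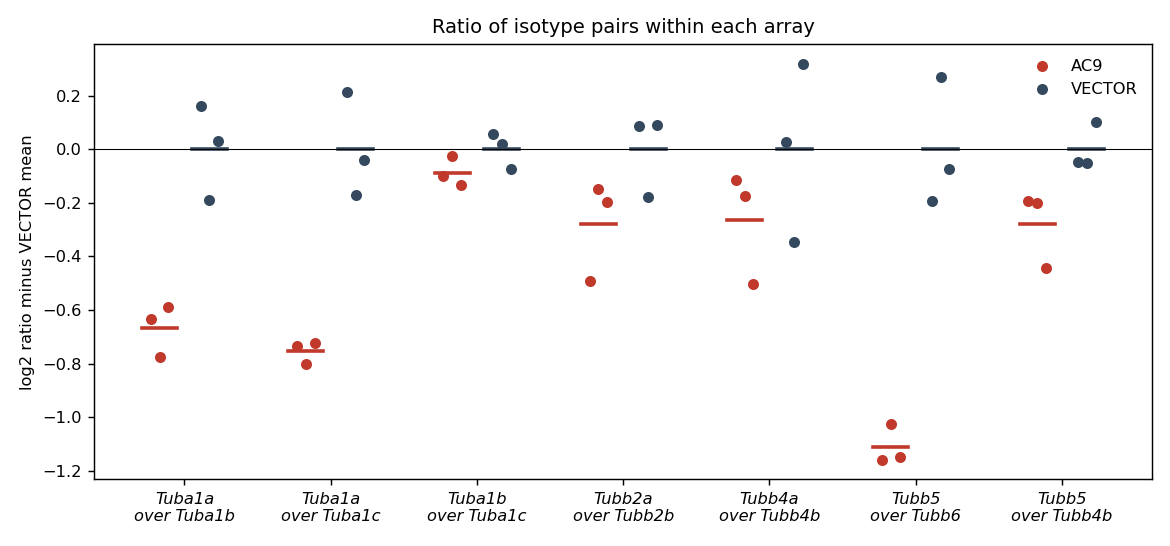
Log2 ratio of isotype pairs within each array, minus the VECTOR mean of the pair (y axis), for 7 pairs (x axis). Points are arrays and short lines are means of AC9 and VECTOR. Groups are apart for Tubb5 over Tubb6 (-1.11), for both Tuba1a pairs (-0.67 and -0.75) and for Tubb5 over Tubb4b (-0.28).

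By likeness of profile, taken as the root-mean-square difference between log2 profiles over the 6 arrays after each gene was centred on its mean, the nearest of 10571 genes to Tubb6 were Phf11c (0.0426), Asf1b (0.0599) and H2bc14 (0.0697). Asf1b is a histone chaperone of dividing cells and H2bc14 a core histone gene. Their own log2 changes were 0.86, 1.01 and 0.86. Nearest to Tuba1a were Armc9 (0.0423), a protein of the ciliary base, Plgrkt (0.0555), a plasminogen receptor, and Tmlhe (0.0572), an enzyme of carnitine synthesis, with log2 changes of -0.58, -0.45 and -0.53. With 6 arrays in 2 groups, this measure rests mostly on the difference between the groups.

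Of the other tubulins and the gamma-tubulin ring that nucleates microtubules, 0 of 18 passed in either direction by limma. An unadjusted p under 0.05 was found for 5 of the 18, and for 5904 of all 19505 genes. Over all genes, 8.26% were called higher and 9.29% lower. Tubg1, the main gamma tubulin, read 8.34, 8.43 and 8.47 in AC9 against 8.63, 8.74 and 8.79 in VECTOR, with no overlap, a change of -0.30 and an adjusted p of 0.0535. Tubg1 passed with dim genes left out (adjusted p 0.0149) and with the intensity-trended prior (0.0171). The alpha tubulin Tuba3b had a change of 0.33 (adjusted p 0.129) and passed without AC9 replicate 2 (adjusted p 0.0403).

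Of 21 measured tubulin folding factors, 3 rose, 4 fell and 14 did not pass, beside 8.26% higher and 9.29% lower over all genes. The median log2 change was 0.12. Tbce, a cofactor that helps assemble the dimer, rose by 0.52 (SE 0.12, adjusted p 0.0140), and Pfdn1, a subunit of the prefoldin chaperone, rose by 0.45 (SE 0.09, adjusted p 0.00751). In contrast to Pfdn1, the prefoldin subunit Pfdn5 read 9.72, 9.89 and 9.80 in AC9, against 10.30, 10.26 and 10.21 in VECTOR, a change of -0.45 (adjusted p 0.00903). Arl2, a small GTPase that works with the cofactors, changed by -0.47 (SE 0.10, adjusted p 0.0118). Tbce did not pass without AC9 replicate 1 (adjusted p 0.0590), nor without AC9 replicate 2 (0.0528). The number that rose was 1 without AC9 replicate 1 or AC9 replicate 2, and the number that fell was 2 without AC9 replicate 1, AC9 replicate 3 or VECTOR replicate 2. Fewer of all genes were called in those fits too: 968 and 1092 higher in place of 1612, and 1206, 1315 and 1352 lower in place of 1812.

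The 3 genes of tubulin mRNA autoregulation did not pass (limma, 1 at an unadjusted p under 0.05, beside 5904 of all 19505 genes). Ttc5, the factor that recognises nascent tubulin, had a mean of 5.82 in AC9, under the dim bound, against 6.20 in VECTOR. Its adjusted p was 0.0652, or 0.0348 without VECTOR replicate 3. Scaper, which links Ttc5 to mRNA decay in human cells, had a change of -0.13 (adjusted p 0.537).

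Of 24 measured tubulin-modifying enzymes, 1 rose and 3 fell, with a median of -0.09. Over all genes 8.26% were called higher and 9.29% lower, and the share of these enzymes called lies near that background. Vash2 and Svbp form an enzyme that removes the last tyrosine of alpha tubulin, Vash2 as the catalytic subunit and Svbp as its partner, and both fell. Svbp read 5.54, 5.66 and 5.71 in AC9 against 6.33, 6.22 and 6.51 in VECTOR. As its AC9 level was under the dim bound, only a lower limit is given, at least 1.20-fold lower in AC9 (adjusted p 0.00195), the VECTOR mean over the bound of each AC9 array. Vash2 read 5.87, 6.41 and 6.26 in AC9, against 6.59, 7.42 and 6.82 in VECTOR, a change of -0.76 (SE 0.21, adjusted p 0.0348). Its spread was wide, and the call was lost without AC9 replicate 1 (adjusted p 0.118), AC9 replicate 3 (0.0669), VECTOR replicate 2 (0.0762) or VECTOR replicate 3 (0.0603). Tpgs1, a subunit of the tubulin polyglutamylase, changed by -0.65 (SE 0.13, adjusted p 0.00691). Ttll6, the member that rose, lay under the bound in both groups, so no size is given. Its adjusted p was 0.0388, but 0.0822 to 0.124 without AC9 replicate 1, 2 or 3 or VECTOR replicate 1 or 2, 0.133 with the intensity-trended prior and 0.0605 after repeated quantile normalization.

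Among 25 measured proteins of microtubule dynamics and binding, 3 rose and 3 fell, with a median of 0.13, counts that lie near the 8.26% higher and 9.29% lower over all genes. Map1b, a microtubule-associated protein best known from axons, read 10.56, 10.54 and 10.81 in AC9 against 9.61, 9.79 and 10.04 in VECTOR, a rise of 0.82 (SE 0.13, adjusted p 0.00270). Camsap3, which anchors microtubule minus ends in epithelial cells, read 8.35, 8.51 and 8.42 in AC9, against 9.06, 9.18 and 9.28 in VECTOR, a change of -0.74 (SE 0.10, adjusted p 0.00114). For both genes the groups were well apart. The plus-end protein Mapre3 changed by -0.61 (adjusted p 0.00408) and Stmn1, which sequesters tubulin dimers, by -0.47 (adjusted p 0.0104). The number that rose was 1 without AC9 replicate 1 or AC9 replicate 3, fits in which 968 and 1061 of all genes were called higher in place of 1612.

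Mitotic genes moved with the groups as well. All 19 measured members of a G2/M list rose by limma, beside 8.26% of all genes called higher. Their median log2 change was 1.57, led by Bub1, Mki67, Cenpe and Ccna2 with changes of 2.07 to 2.14. The mean level of the list was 9.18 to 9.23 on the AC9 arrays and 7.60 to 7.71 on the VECTOR arrays. Tubb6 changed by less than that median, and Tuba1a and Tubb2a ran the other way. The part of cell cycle state in the isotypes' changes was not tested.

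**Figure D4:**
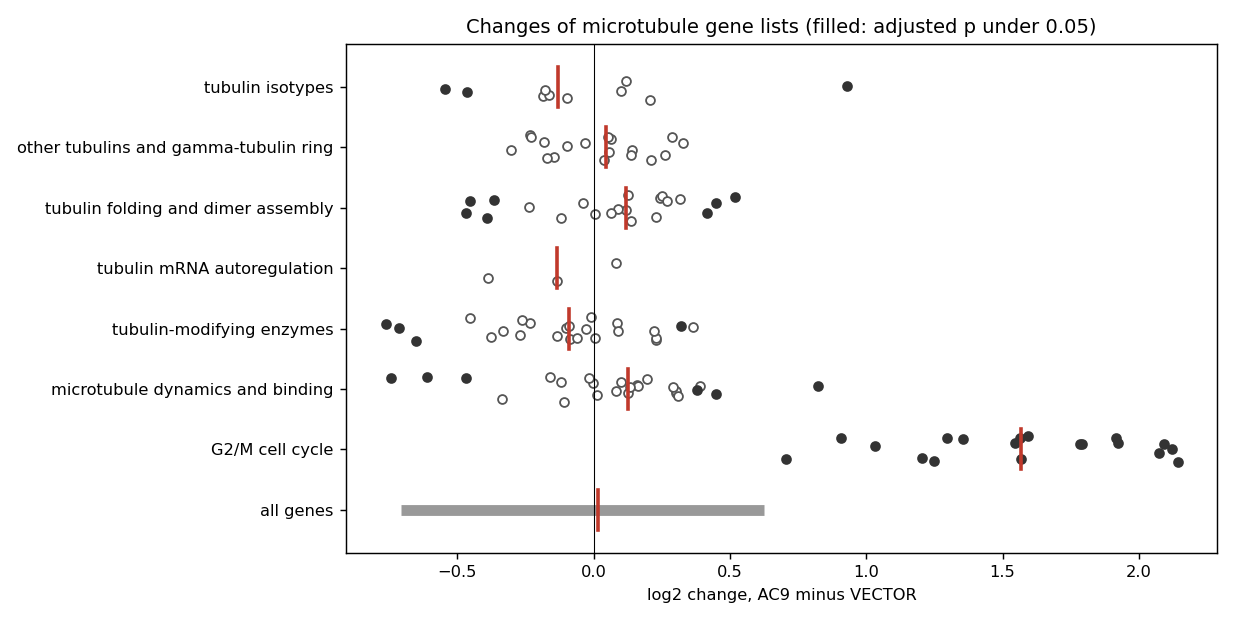
Log2 change, AC9 minus VECTOR (x axis), of the measured genes of each list (y axis), with points filled at a limma adjusted p under 0.05 and the median of each list as a vertical line. The grey bar spans the middle 95% of all genes, from -0.71 to 0.62. The G2/M list lies apart, at a median of 1.57, while the tubulin isotypes and the other lists plotted have medians between -0.13 and 0.13.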

How the data were processed

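Transcripts of 3 AC9 and 3 VECTOR samples were measured on Clariom S arrays. Each deposited value is the log2 intensity of a probe set. The authors made it with RMA, which corrects background, quantile-normalizes and summarises probes, per the submitters' processing notes. No source used here names the software, its version or the build. Of 28846 probe sets, 22206 were not controls, and the platform annotation gave 19572 of these 1 gene symbol, 0 several and 2634 none. All 19572 matched RefSeq's GRCm38.p6 gene table by gene number. For 55 genes with several probe sets, the brightest on average was used. AC9 was compared with VECTOR in R 4.3.3 with limma 3.58.1 (functions lmFit and eBayes, constant prior variance, two-sided) on the values as deposited, with Benjamini-Hochberg adjustment over 19505 genes and a threshold of 0.05. Error is the SD over 3 arrays or the SE of the fit, and the number of arrays limits the precision. A gene was under the dim bound where its group mean was below the mean of that group's 90th percentiles of 5222 negative controls.

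The members and gene lists were chosen with earlier results of these data known. Named genes were the 10 isotypes, up to 4 called members of each list by size of change (otherwise the 2 with the smallest p), and the 3 nearest profiles to the isotypes with the largest rise and fall, among genes above the bound in a group that were no isotype and had no predicted (Gm or Rik) symbol. Promoter windows and motif shares came from RefSeq (GRCm38.p6). Alternatives were a trended robust prior, quantile normalization, median centring, leaving out dim genes, the mean of probe sets, array weights, a replicate block, each array left out, and an adjusted p of 0.01. The fit was tested on simulated data.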

Additional observations from a re-analysis of the deposited data

How the results depend on the processing

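Over 13 alternatives for each of the 10 isotypes, 123 of 130 results kept their direction and their side of the threshold. Among them were all 13 of Tubb6 (log2 change 0.85 to 1.01) and of Tuba1a (-0.61 to -0.46). The trended prior, leaving out dim genes, the mean of probe sets and the replicate block left each isotype's log2 change as it was. Under these, only the side of the threshold could change. With the intensity-trended robust prior, Tuba1c (0.21) and Tubb5 (-0.18) passed, at limma adjusted p of 0.00433 and 0.0154. Tuba1c made 2 isotypes higher, and Tubb5 joined those lower. This fit differed from the main one only in its prior variance, and why these 2 passed was not tested further. Leaving out each array in turn gave Tubb2a changes of -0.55 to -0.40 and Tubb3 changes of -0.17 to 0.000262, and 1 to 2 isotypes lower. Without an array, and so with fewer samples in the fit, the genes called numbered 2174 to 3025 in all, 968 to 1491 higher and 1206 to 1534 lower. The part of sample number, and of which array was left out, in these counts was not tested. At an adjusted p of 0.01, 1670 genes were called, 729 higher and 941 lower, and 1 isotype was lower. With the replicate number as a block, 3062 genes were called and no isotype changed side; Tubb6 had an adjusted p of 0.00127, Tuba1a 0.0182 and Tubb2a 0.0376, while Ttll6 lost its call (0.0750) and 5 modifying enzymes were lower in place of 3. Deviations of same-numbered arrays correlated at 0.00846, 0.0814 and 0.00764, and 4 of 6 arrays correlated best with their own number. From so few arrays, these values cannot settle whether the shared numbers pair the samples. With dim genes left out, and so fewer genes tested, 8 folding factors were higher in place of 3, and 6 proteins of microtubule dynamics higher in place of 3. Lower were 6 modifying enzymes in place of 3 and 1 other tubulin gene in place of 0. Calls over all genes grew as well: 2046 higher and 2272 lower of 10600 tested, against 1612 and 1812 of 19505. Repeated quantile normalization gave 5 modifying enzymes lower, and median centring 2 higher in place of 1. Over all genes, that normalization called 1756 lower against 1812, and median centring 1861 higher against 1612. At an adjusted p of 0.01, 1 folding factor was higher and 1 lower, 1 protein of microtubule dynamics was higher, and 0 modifying enzymes were higher. Signals near the dim bound of 6.06, such as Tubb2a and Tubb4a, leave changes that may read too small, or too large where background differs between groups. Background probe sets were mostly lower in AC9, chiefly at high GC content, while the dim bound was higher there, as given above. The part of these background differences in the changes of dim signals was not tested.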

Other observations

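The letters TGACGTCA, found before the start of Tubb2a, were in the windows of 356 measured genes. Of these, 39 (11.0%) were called higher in AC9 and 29 (8.15%) lower, against 7.93% and 9.64% of the 15691 measured genes with a window. Their median log2 change was 0.04 against 0.01. The difference between these shares was not tested.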
